A study of Xenopus laevis with 2 samples.

Results

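Transcripts of 10 glycolytic enzyme symbols (ALDOA, ALDOC, ENO1, ENO3, GAPDH, PFKM, PFKP, PGAM2, PGK1 and TPI1) were read in Xenopus laevis animal caps made to express xnr2. Every row of the deposited table that carries one of these symbols was taken, which gave 20 gene models of 24364. The table names its models after human genes, so that the copies of a gene share a symbol, and 15 of the 20 models had the symbol and the chromosome of an entry in RefSeq's gene table for assembly v10.1. The 5 others were both ALDOA models, both ALDOC models on 9_10L and 9_10S, and PGK1 on 8S, and no such entry backs their deposited symbol. PGK1 on 8S was flanked by the same symbols as PGK1 on 8L, such as NKAP and ZDHHC9. All samples belong to 1 group with the genotype label of exogenous xnr2 expression. Embryos received xnr2 RNA at early cleavage, caps were cut at stage 10, and pools of 10 explants were taken for RNA at stage 14, once per library. The libraries are numbered 1 and 3 in the labels, and nothing there says that they came from separate clutches. Control caps were not analysed here, so that no level below is a response to xnr2. Library 3 held 28845114 exon reads of named models and library 1 held 25545177. Levels are given in CPM, reads per 1000000 of these, or in CPM per kb of exon where models of different length are compared.

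Glycolysis splits glucose into pyruvate in the cytoplasm. An early phase spends ATP on phosphorylating the sugar and cleaves it into triose phosphates, and a later phase oxidises them and recovers ATP. Several steps have isoenzymes, some of which mark skeletal muscle in mammals. X. laevis is an allotetraploid frog, whose chromosomes come in pairs called L and S for the longer and the shorter one, so that many genes have an L and an S copy (homeologs).

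The 20 models took 0.430% of the exon reads in library 3 and 0.437% in library 1, or 0.433 ± 0.0050% (SD, n = 2). Exact binomial 95% intervals of these shares were 0.427 to 0.432% and 0.434 to 0.439%, and cover counting error only. A pair of models, the L copy of ENO1 and the S copy of GAPDH, held 68.7% of these reads in library 3 and 69.1% in library 1. Of the 20 models 17 reached 1 CPM in both libraries, against 63.5% of all 23845 named models. Their median was 22.2 CPM against 4.79 CPM over all named models, and 16.7 against 2.00 CPM per kb. The symbols were selected on their levels and L to S ratios in these same libraries, so that both are given as a description.

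With the models of a symbol summed, levels per length covered a wide range. GAPDH led at 1511 CPM per kb in library 3 and 1338 in library 1. ENO1 followed at 709.9 and 868 CPM per kb in libraries 3 and 1, ahead of ALDOA at 362 and 321 and of PFKP at 173 and 162. None of these 4 overlapped with the next. The next 4 symbols were PFKM at 39.7 and 41.6 CPM per kb, PGAM2 at 20.2 and 48.8, TPI1 at 25.3 and 41.5 and ALDOC at 20.0 and 29.4, and adjacent ones of these 4 overlapped across the libraries. PGK1 lay below them at 5.15 and 5.56 CPM per kb. ENO3 stood last, with 0 reads in library 3 and 1 read in library 1, under the 3 reads that a count of 0 allows (0.104 CPM in library 3 and 0.117 CPM in library 1).

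**Figure D1:**
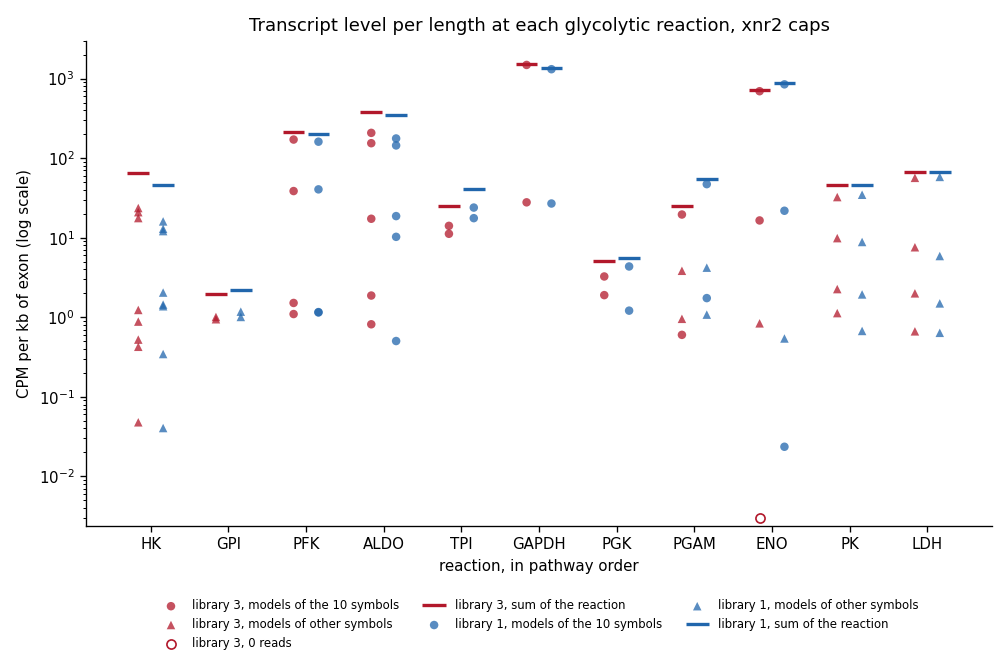
Level per length of every gene model of the glycolytic enzymes, by reaction in pathway order, in CPM per kb of exon on a log scale. Circles are models of the 10 symbols, triangles models of other symbols of the same reaction, bars the sum of a reaction, and the open circle at the lower edge is ENO3 with 0 reads; GAPDH and enolase stand highest in both libraries, and GPI and PGK lowest.

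Set in the order of the pathway, the reactions spanned a far wider range than the libraries did, but not every step stood apart. The mutase levels of libraries 3 and 1 (24.9 and 54.1 CPM per kb) enclosed those of triosephosphate isomerase (25.3 and 41.5). They also enclosed those of pyruvate kinase (45.6 and 46.1). The plot of levels by reaction adds the models of other symbols, such as hexokinases and pyruvate kinases, which catalyse steps before and after those of the 10 symbols. Summed levels were 212 CPM per kb in library 3 and 204 in library 1 for phosphofructokinase, 382 and 350.4 for aldolase, and 1511 and 1338 for GAPDH. The step just after GAPDH, phosphoglycerate kinase, had 5.15 and 5.56 CPM per kb in libraries 3 and 1. Mutase and enolase, which follow it, had 24.9 and 54.1 and then 711 and 868 CPM per kb. The lowest step was glucose-6-phosphate isomerase, with 1.95 CPM per kb in library 3 and 2.18 in library 1 from 2 models of GPI. A transcript carried by a model with another symbol would be missing from its sum.

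Phosphofructokinase commits the sugar to glycolysis, and is known in mammals as a muscle type (PFKM), a platelet type (PFKP) and a liver type (PFKL), a symbol that was searched for and matched no model used here. PFKP was the main form here, and nearly all its reads came from the L copy. The L model of PFKP (6L, 16518645 to 16587659 on assembly version 9.1) had 482 CPM in library 3 and 453 CPM in library 1. Its S model (6S, 13509793 to 13571328) had 4.33 and 3.33 CPM. The L share of the pair's reads was 99.1% in library 3 (exact binomial 95% interval 98.9 to 99.3%) and 99.3% in library 1 (99.1 to 99.4%). PFKM was used the other way round. Its L model (2L, 145345394 to 145401125) had 3.33 and 3.48 CPM in libraries 3 and 1, while its S model (2S, 126118214 to 126151649) had 113 and 118 CPM. The L share of PFKM was 2.87% in library 3 (2.33 to 3.49%) and 2.86% in library 1 (2.30 to 3.51%). The phosphofructokinase transcripts were thus mostly PFKP from L and, at a lower level, PFKM from S, and the PFKP model on 6L made up 80.6% of the reaction's level per length in library 3 and 79.0% in library 1.

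Aldolase cleaves fructose bisphosphate into triose phosphates. ALDOA, the form of muscle and many other tissues in mammals, had models on Scaffold29 (1851930 to 1871704) and Scaffold22 (1016217 to 1021827), which carry no L or S name. Both were flanked by the same 6 symbols in the same order, PPP4C on one side and FAM57B, MVP, PAGR1, KIF22 and MAZ on the other. The Scaffold29 model had 333 CPM in library 3 and 283 CPM in library 1, and the Scaffold22 model had 234 and 219 CPM. Per length the log2 ratio of Scaffold29 over Scaffold22 was 0.36 ± 0.0997 (SD, n = 2), a ratio of 1.28. Both ALDOA copies were thus used at similar levels, unlike those of the phosphofructokinases.

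ALDOC, known as the brain form in mammals, had 3 models and much lower levels. On 2L (33229110 to 33247892) it had 3.78 CPM in library 3 and 37.7 CPM in library 1. On 9_10L (100343215 to 100350604) it had 25.2 CPM in library 3 and 14.9 CPM in library 1, and on 9_10S (90085153 to 90095072) 1.14 and 0.705 CPM. The 2L and 9_10L models therefore changed places as the higher one between the libraries. In the pair on 9_10 the L share of reads was 95.7% in library 3 (93.9 to 97.0%) and 95.5% in library 1 (93.0 to 97.3%). The model on 2L enters no pair. It lies between PIGS and SPAG5, while both models on 9_10 lie near AIMP2 and DAGLB. Which aldolase the models on 9_10 encode was not determined.

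Triosephosphate isomerase, TPI1, interconverts the triose phosphates that aldolase makes. Among the symbols with an L and an S model on a pair of chromosomes, it was the most evenly used in either library. The ALDOA models on scaffolds are outside this ranking. The L model (7L, 6529316 to 6536673) had 11.8 CPM in library 3 and 25.2 CPM in library 1, and the S model (7S, 4546263 to 4554435) had 21.1 and 26.4 CPM. The L share of reads was 35.9% in library 3 (32.8 to 39.0%) and 48.9% in library 1 (46.2 to 51.6%), so that these intervals did not overlap. The L model has 1056 bp of exon and the S model 1499 bp. Per length, the log2 ratio of L over S was -0.33 in library 3 and 0.44 in library 1, with a mean of 0.06 ± 0.54 (SD, n = 2). The ratio thus had no direction common to both libraries, and its mean was -0.45 when levels were not divided by exon length.

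GAPDH oxidises glyceraldehyde phosphate and opens the later phase of the pathway. The L model (7L, 7804311 to 7824419) had 42.1 CPM in library 3 and 40.7 CPM in library 1. The S model (7S, 4945078 to 4950692) had 1724 and 1524 CPM, and ranked 26th of 23845 named models by level per length. The L share of the reads was 2.39% in library 3 (2.25 to 2.52%) and 2.60% in library 1 (2.45 to 2.76%). The models also differ in extent, with 20109 bp of genome and 1514 bp of exon on 7L and 5615 bp of genome and 1162 bp of exon on 7S. GAPDH and TPI1 lie on the same pair of chromosomes, where they start at 7804311 and 6529316 on 7L and at 4945078 and 4546263 on 7S. The pair of GAPDH copies was strongly unequal while the pair of TPI1 copies was not.

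Phosphoglycerate kinase, PGK1, makes the first ATP of the later phase and was the lowest member apart from ENO3. The L model (8L, 38419787 to 38444356) had 7.38 CPM in library 3 and 9.87 CPM in library 1, and the S model (8S, 66007313 to 66022004) had 3.19 and 2.04 CPM. The L share of reads was 69.8% in library 3 (64.3 to 74.9%) and 82.9% in library 1 (78.2 to 87.0%). Per length the L copy was higher in both libraries, with log2 ratios of 0.75 in library 3 and 1.76 in library 1. Both models rest on few reads, 305 in library 3 and 304 in library 1 together.

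Phosphoglycerate mutase moves the phosphate within phosphoglycerate, and enolase then acts on the product. PGAM2, the muscle form in mammals, had 25.0 CPM in library 3 and 60.3 CPM in library 1 from its L model (3L, 118809008 to 118814410). Its S model (3S, 25972093 to 25978424) had 0.797 and 2.31 CPM, from 23 and 59 reads. The L share was 96.9% in library 3 (95.4 to 98.0%) and 96.3% in library 1 (95.3 to 97.2%). Both copies were lower in library 3, while the L share stayed within its counting interval. The broadly expressed mutase PGAM1, which is not among the 10 symbols, reached 6.79 CPM in library 3 and 7.44 CPM in library 1 from its higher model, on 7L. The PGAM2 model on 3L made up 78.4% of the reaction's level per length in library 3 and 87.0% in library 1.

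Enolase makes phosphoenolpyruvate. ENO1, its broadly expressed form, was high and came from L. The L model (7L, 83354742 to 83366522) had 1226 CPM in library 3 and 1496 CPM in library 1, and the S model (7S, 59093154 to 59104938) had 35.8 and 47.4 CPM. The L share of reads was 97.2% in library 3 (97.0 to 97.3%) and 96.9% in library 1 (96.8 to 97.1%). ENO3, the muscle form in mammals, had a single model (3L, 141501040 to 141512756), which was at or under the detection floor in both libraries. The models of muscle forms thus differed, with PFKM and PGAM2 present and the ENO3 model on 3L not detectable at this depth. No S model carried the symbol ENO3, so a transcript from such a copy would be missing here. ENO2, the neuronal form, was searched for and matched no model used here.

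**Figure D2:**
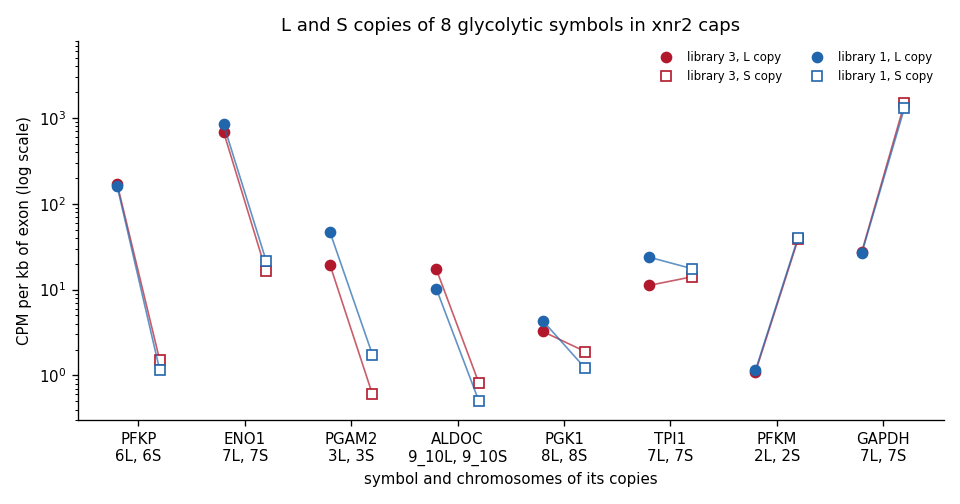
Level per length of the L copy (filled circle, left) and the S copy (open square, right) of the 8 symbols with 1 model on each of a pair of chromosomes, in CPM per kb of exon on a log scale, for both libraries. The L copy is far higher in PFKP, ENO1, PGAM2 and ALDOC, the S copy in PFKM and GAPDH, and the lines of the libraries run side by side except in PGK1 and TPI1.

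The 8 pairs of 1 L and 1 S model on chromosomes of the same number were compared per length, as log2((CPM per kb + 0.1)/(CPM per kb + 0.1)) of L over S. The mean ratio was 6.86 ± 0.19 for PFKP (SD, n = 2), which is 116-fold. For ENO1 it was 5.33 ± 0.082, or 40.2-fold. PGAM2 had 4.75 ± 0.091 and ALDOC on 9_10 had 4.17 ± 0.10, or 26.8-fold and 18.1-fold. GAPDH had -5.67 ± 0.091 and PFKM -5.02 ± 0.0068, so that S was 50.8-fold and 32.4-fold higher. PGK1 stood at 1.26 ± 0.72. In PFKP, ENO1, PGAM2, ALDOC, GAPDH and PFKM the difference between copies was thus many times the spread between the libraries. Where the lesser copy is near 1 CPM per kb the size depends on the added constant: with 1 in place of 0.1 the ratio was 6.16 for PFKP, 3.91 for PGAM2, 3.12 for ALDOC and -4.25 for PFKM.

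**Figure D3:**
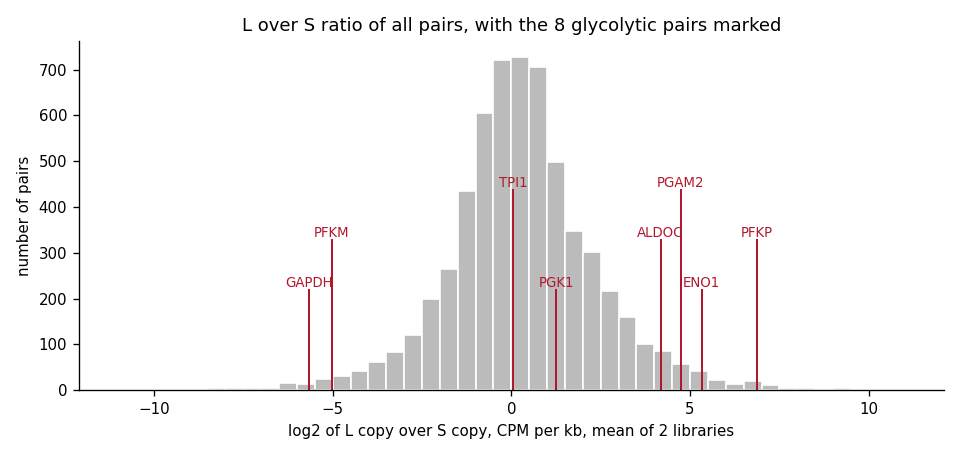
Number of pairs by log2 ratio of the L copy over the S copy, in CPM per kb and as the mean of 2 libraries, for all 5967 pairs (grey), with the 8 glycolytic pairs as red lines whose height has no meaning. TPI1 and PGK1 lie near the centre of the distribution and the other 6 in its tails.

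In all, 5967 symbol pairs had 10 reads or more. Of these, 7.06% had an L copy at least 10-fold above the S copy and 3.87% an S copy at least 10-fold above the L copy. Among the 8 glycolytic pairs the counts were 4 and 2. The median absolute log2 ratio was 4.88 in the glycolytic pairs and 1.11 in all pairs. The members and their copies were picked with such ratios in view, so that nothing is read from these counts. By absolute ratio PFKP ranked 48th, GAPDH 122nd, ENO1 148th, PFKM 194th, PGAM2 239th and ALDOC 361st of the 5967 pairs, and PGK1 2691st and TPI1 5808th. The direction of the mean ratio was mixed, with L higher in 6 glycolytic pairs and S in 2, against 3326 and 2641 of all pairs. The 6 include TPI1, whose mean of 0.06 had no direction common to both libraries. Summed over the 8 pairs, L copies had 48.9% of the reads in library 3 and 55.0% in library 1. This share mainly sets ENO1 on 7L (35366 and 38204 reads in libraries 3 and 1) against GAPDH on 7S (49715 and 38921). It therefore does not describe even use of L and S within pairs. The ratio changed between the libraries by a median of 0.14 in the glycolytic pairs and 0.30 in all pairs. These medians are not matched for depth, as the glycolytic pairs had 609 reads or more and other pairs as few as 10.

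Pairs that lie within 1 Mb of a glycolytic gene on both its chromosomes were set beside it. Around GAPDH there were 11 such pairs, with a median log2 ratio of L over S of 0.56 where GAPDH had -5.67, and 1 of them had an S copy 10-fold higher. Around ENO1 there were 10, with a median of -0.53, and 0 were 10-fold apart in favour of L. Around PGAM2 there were 26 with a median of -0.22, of which 3 had an L copy 10-fold higher, as PGAM2 has. Around ALDOC on 9_10 there were 16 with a median of 0.61, of which 1 had an L copy 10-fold higher. The 4 pairs around PFKM had a median of 0.16 and the 3 around PFKP one of 0.70, and 0 of either were 10-fold apart in the direction of the member. Pairs 10-fold apart in the direction opposite to the member numbered 2 around GAPDH, 1 around PGAM2 and 1 around PFKP. Around ENO1, ALDOC and PFKM there were 0. TPI1 and PGK1, with small ratios of their own, had 14 and 12 neighbours with medians of 0.84 and -0.03. The neighbourhoods of GAPDH and TPI1 share pairs. None of the 20 models overlapped another model. Reads that match both copies may have been split or lost, as the sources used here do not state their handling, so a ratio between copies is one of counted reads.

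Between the libraries, 19 models with at least 10 reads were compared, as log2 of library 3 over library 1 with 0.1 CPM added. Of these, 9 were higher and 10 lower in library 3, and the median ratio was -0.06, against 0.05 over all models. A difference of 1.5-fold or more to the lower side in library 3 was met by 4 of 19 models, against 10.9% of all 18526 models. To the higher side it was met by 3 of 19, against 13.1% of all models. With TMM scaling, or with 1 CPM added, 1 of 19 met it on that side. The 4 lower ones were ALDOC on 2L, both copies of PGAM2, and TPI1 on 7L. The 3 higher ones were both ALDOC models on 9_10 and PGK1 on 8S, of which only ALDOC on 9_10L stayed past the limit in these alternatives. Its 95% counting interval, from the reads without the added 0.1 CPM, was 0.57 to 0.94. That of PGK1 on 8S was 0.14 to 1.17. For ALDOC on 9_10S, with 33 reads in library 3 and 18 in library 1, the interval was -0.17 to 1.61, which includes a ratio of 0. With a single group, the ratios describe the spread between libraries. Each library came from its own pool of explants, so pool and library preparation cannot be told apart.

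**Figure D4:**
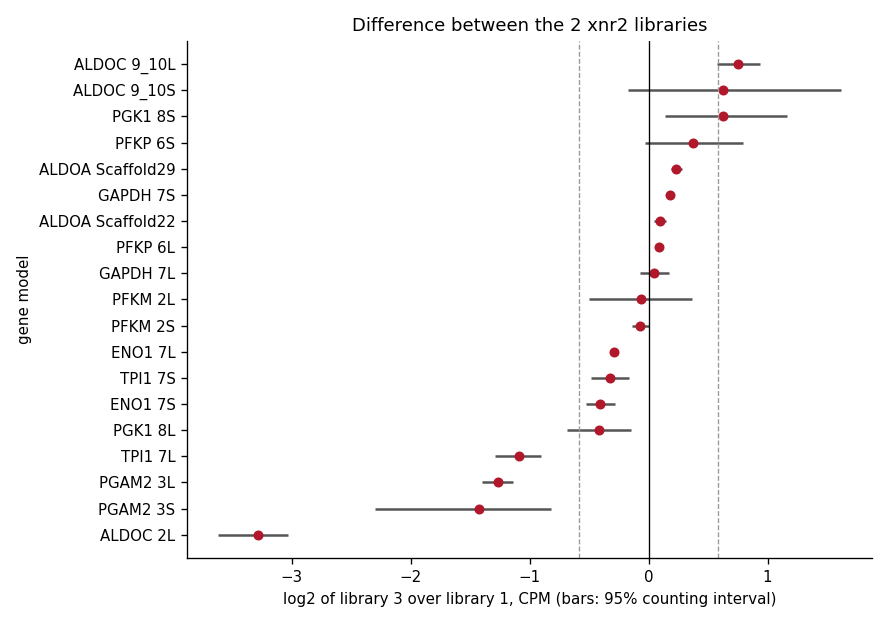
Log2 ratio of library 3 over library 1 in CPM for the 19 models with at least 10 reads, from the highest at the top to the lowest. Bars are 95% intervals from the read counts alone, without the 0.1 CPM added to the ratios, and dashed lines mark 1.5-fold. ALDOC on 2L stands far to the left, and the abundant models of GAPDH, ENO1, ALDOA and PFKP lie between the dashed lines.

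ALDOC on 2L differed most. It had 109 reads in library 3 and 962 in library 1, a log2 ratio of -3.28 with a counting interval of -3.62 to -3.03. The ratios here have 0.1 CPM added, while their counting intervals do not, so an interval is not centred on its ratio. Of the 9507 models with a mean of at least 10 CPM, 10 had a lower ratio, which makes it the 11th. The models next to it on 2L did not share the difference: PIGS, on one side, stood at 4.65 CPM in library 3 and 4.19 CPM in library 1, and SPAG5, on the other, at 60.2 and 65.1 CPM. PGAM2 on 3L followed at -1.26 (-1.40 to -1.14), ranked 46th, and its S copy, with too few reads for the ranking, had -1.42 (-2.30 to -0.82). TPI1 on 7L had -1.09 (-1.29 to -0.90) and ranked 66th, while its S copy had -0.32. Abundant members varied less, from -0.29 for ENO1 on 7L to 0.23 for ALDOA on Scaffold29.

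Marker genes differed between the libraries as well. Of 9 epidermis symbols with 28 models, 24 models had 10 reads, and library 3 was lower by 1.5-fold or more in 14 of them and higher in 1. The same limit and minimum of reads hold for the lists below. Over all 18526 models with 10 reads, 10.9% were lower and 13.1% higher by this limit. ITLN1 on 7L had 0.728 CPM in library 3 and 30.8 CPM in library 1, and KRT19 on 9_10S had 32.2 and 174 CPM. The summed epidermis level was 3841 CPM in library 3 and 3517 CPM in library 1, carried by KRT8 and KRT18, and 2 KRT12 models were at 0 in both. These abundant models on 2L and 2S did not share the drop. Their log2 ratios were 0.26 and 0.48 for KRT8 and -0.06 and 0.33 for KRT18. Notochord symbols (7 of 8 found, 14 models) had 9 models higher and 0 lower by that limit, with sums of 2803 and 1667 CPM. Both FOXA2 models were lower by less, with log2 ratios of -0.36 on 5L and -0.50 on 5S. For skeletal muscle, whose enzyme forms in mammals include PGAM2 and PFKM, 11 of 12 symbols were found. Its 26 models summed to 34117 CPM in library 3 and 35028 CPM in library 1, with 2 models 1.5-fold lower, 2 higher and none at 0. The lower ones were TNNI2 on 4S and TNNC2 on 9_10L, with log2 ratios of -0.75 and -0.59. The higher ones were the myogenic factors MYF5 on 3L and MYOD1 on 4S, with 0.83 and 0.60. Other models of these symbols went the same way by less, with -0.51 for TNNI2 on 4L and -0.50 for TNNC2 on 9_10S. MYF5 on 3S had 0.41 and MYOD1 on 4L 0.57. Among the abundant models, CKM on 8L (-0.43) and MYL1 on 9_10L (-0.36) were lower, and ACTC1 on 8L (0.45) and 8S (0.44) higher. The near equal sums thus do not describe every muscle model. The neural plate list (5 of 6 symbols, 13 models) summed to 51.1 and 38.8 CPM, with 2 models lower, 3 higher and PAX6 on 7S at 0. The list of multiciliated cells (6 of 6 symbols, 10 models) summed to 109 and 83.4 CPM, with 1 model lower, 2 higher and none at 0. Red blood cell symbols (4 of 5, 9 models) summed to 0.104 and 0.0391 CPM, with both GATA1 copies at 0. The part of these cell types in the differences of ALDOC, PGAM2 and TPI1 was not tested. In such pooled tissue, fewer cells of a type and less RNA per cell cannot be told apart.

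Differences also ran with exon length, with a median log2 ratio of library 3 over library 1 of -0.11 in the shortest of 5 classes of models, whose exons span 172 to 1446 bp, and 0.21 in the class of 4052 to 20100 bp. Both PGAM2 models and TPI1 on 7L belong to the shortest class and ALDOC on 2L, at 2016 bp, to the next. Taking off the median of a model's own length class left -0.98 for TPI1 on 7L and -1.16 for PGAM2 on 3L.

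The other glycolytic enzymes on a list of 21 symbols gave 23 models of 12 symbols, of which 21 reached 1 CPM in library 3 and in library 1. Of all named models 63.5% did so. The median level was 2.64 CPM. Hexokinase, which phosphorylates glucose at entry, was led by HK2 on 3L at 101 CPM in library 3 and 58.7 CPM in library 1, HK2 on 3S at 105 and 71.1 CPM, and HK1 on 7L at 74.8 and 54.8 CPM. Lactate dehydrogenase, which turns pyruvate into lactate, came mostly from LDHB, with 1.14 and 1.10 CPM on 3L and 73.6 and 75.6 CPM on 3S. Of 22 models with 10 reads, 3 differed by 1.5-fold or more to the lower side in library 3 and 3 to the higher side. Over all models these shares were 10.9% and 13.1%. Hexokinase as a whole had 65.2 CPM per kb in library 3 and 46.3 in library 1, and pyruvate kinase 45.6 and 46.1. The main models of these steps thus stood well under those of GAPDH and ENO1 per length.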

How the data were processed

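The deposited signal is an exon read count per gene model that the authors rescaled, per the file headers, with HOMER's simple normalization on models of assembly version 9.1. Per the submitters' processing notes, FastQC, STAR 2.4.0k, HOMER and edgeR were used. No other column of per-sample values was present (0 such columns). Dividing by what 1 read is worth (0.715 in library 3, 0.808 in library 1) gave whole reads, within 0.05, for 100% of nonzero values. The reads sum to 29238297 and 25880104. The 519 models without a symbol (1.34% and 1.29% of reads) stayed out of the totals. With 1 group no count test could be fitted, so no p-value is given. edgeR 4.0.16 and DESeq2 1.42.0 gave only scaling factors for alternatives. The ratio calculations were tested on simulated counts. Pairs needed 10 reads over both copies and libraries. The 10 symbols, the lists and the thresholds were chosen with earlier results of these data known, and the grouping by reaction, the windows of 1 Mb and the 10-fold limit after the table was seen. Every model of the 10 symbols is named. Of other lists, the 4 highest models and those at 10 CPM and 2-fold apart were to be named. This was done for the lists of enzymes, but not in full for the lists of marker genes. Other genes named were chosen after their values were seen. Exon lengths are those deposited by the authors.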

Additional observations from a re-analysis of the deposited data

How the results depend on the processing

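Of 124 recomputed values of single models or pairs, 104 were labelled unchanged and 20 moved. No value of 1.5-fold between libraries or 2-fold between copies changed direction, but most of these settings could not have reversed one. An added constant cannot change the sign of a ratio, and the TMM factors were only 0.98 in library 1 and 1.02 in library 3. Medians of the length classes ran only from -0.11 to 0.21. Smaller ratios were not checked for a reversal, such as that of TPI1, which went from 0.06 to -0.45 without division by exon length. Ratios between libraries were judged by their counting interval, which has no added constant, where 65 stayed and 11 moved. L over S ratios were judged by the SD of the libraries, where 39 stayed and 9 moved. Many of these 39 could not move. A single library always lies within that SD of the mean, and a minimum of 100 reads left every pair as it was. Summing the models of a symbol changed ALDOC alone. The number of models at least 1.5-fold higher in library 3 fell to 1, against 3, with TMM factors and also with a pseudocount of 1 CPM. The number lower there was 3 to 4 under the alternatives. The median absolute L over S ratio was 4.08 with a pseudocount of 1 and 5.01 with the models of a symbol summed, against 4.88. The share of reads was 0.427% with unnamed models in the total. In a single library the median level was 23.1 to 32.0 CPM, the median absolute L over S ratio 4.85 to 4.91, the share of reads 0.430 to 0.437%, the L share of reads 48.9 to 55.0%, and the number of models at 1 CPM 18 in either. No paired analysis was possible because there is 1 group. Counts of under 100 reads per model, as in PGAM2 on 3S or ALDOC on 9_10S, limit those ratios.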

Other observations

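Enzymes that feed or bypass glycolysis showed levels of their own. In the list of the pentose phosphate pathway and glycogen, 19 of 20 symbols had 32 models. The median level was 5.95 CPM, and 28 models were at 1 CPM or more in library 3 and in library 1, against 63.5% of all named models. Glycogen phosphorylase, which releases glucose phosphate from glycogen, was led by PYGB. Its L model (5L) had 1366 CPM in library 3 and 654 CPM in library 1, a log2 ratio of 1.06 between the libraries, and its S model (5S) had 2102 and 1755 CPM. RPIA on 1L, a pentose phosphate isomerase, had 179 and 191 CPM, and the transaldolase TALDO1 on 4L had 89.3 and 118 CPM. The glycogen synthase GYS1 on 7L had 21.6 CPM in library 3 and 7.48 CPM in library 1. Of 30 models with 10 reads, 6 differed by 1.5-fold or more to the higher side in library 3 and 1 to the lower side. Over all models these shares were 13.1% and 10.9%.

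In the list of gluconeogenesis and glycolysis control, 20 of 23 symbols had 39 models. The median level was 11.4 CPM, and 28 models were at 1 CPM or more in library 3 and in library 1, against 63.5% of all named models. PFKFB1 on 8S, an enzyme that makes and breaks the activator of phosphofructokinase, led with 185 CPM in library 3 and 162 CPM in library 1. The hypoxia factor HIF1A had 136 and 130.0 CPM on 8L and 113 and 101 CPM on 8S, and PDHA1, a subunit of pyruvate dehydrogenase, had 95.6 and 87.0 CPM on 2L. The gluconeogenic enzyme FBP1 on 1L was lower in library 3, at 30.9 and 68.0 CPM in libraries 3 and 1. Of 32 models with 10 reads, 6 differed by 1.5-fold or more to the higher side in library 3 and 2 to the lower side, against 13.1% and 10.9% of all models. The 3 models of G6PC on 9_10S and FBP2 on 1S had 0 reads in both libraries.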
